A study of Mus musculus with 6 samples.

Results

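The small leucine-rich proteoglycans (SLRPs) are secreted matrix proteins with a core of leucine-rich repeats. The 10 SLRP genes described here, Lum, Dcn, Bgn, Fmod, Omd, Ogn, Aspn, Prelp, Kera and Epyc, were taken by name, with the probe set of the highest mean over all arrays, out of 19938 genes measured. Each had 1 probe set. Expression was compared between 3 mouse osteosarcoma lines and 3 osteoblast cultures, each sample on its own Affymetrix Mouse Gene ST array, and values are log2 expression as deposited, after robust multi-array averaging (RMA). The lines, OS_493H, OS_494H and OS_716H, were each derived from 1 primary tumour of a C57Bl6 mouse labelled Osx-Cre+ with fl/fl alleles of both Rb and p53. In this model Cre recombinase acts where the Osterix promoter of the osteoblast lineage is active. OS_493H was labelled as a female hip tumour at age 188, OS_494H as a male hip tumour at age 190 and OS_716H as a female tibial tumour at age 226, with no unit of age given. The cultures, numbered 1 to 3, were all of KUSA4b10, a C57Bl6 bone marrow stromal line, kept in 50 ug/ml ascorbate for 21 days from confluence. Both groups shared a growth medium, but neither ascorbate nor a differentiation time is given for the lines, so tumour origin and culture state cannot be told apart. The 3 cultures are 1 cell line, and the labels do not settle whether they were grown separately, so p-values cover the spread between these samples only. In such bulk samples fewer cells of a type and less RNA per cell cannot be told apart.

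SLRPs coat collagen fibrils, set their spacing and width, and hold growth factors of the TGF-beta family in the matrix. By sequence they fall into classes: decorin (Dcn), biglycan (Bgn) and asporin (Aspn) in class I; lumican (Lum), fibromodulin (Fmod), Prelp, keratocan (Kera) and osteomodulin (Omd) in class II; osteoglycin (Ogn) and epiphycan (Epyc) in class III. Class I members other than Aspn carry chondroitin or dermatan sulphate chains, and several class II members carry keratan sulphate or sulphated tyrosines. In bone, Dcn, Bgn, Omd, Ogn and Aspn are made by osteoblasts and their precursors, while Kera is best known from the cornea and Epyc from growth plate cartilage.

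As a check of the labels, Rb1, a gene targeted in the model, was at 9.26, 9.70 and 9.87 in OS_493H, OS_494H and OS_716H, against 10.68, 10.66 and 10.66 in cultures 1, 2 and 3 (limma adjusted p = 0.00427). The array of OS_716H, labelled female, had the Y-linked Eif2s3y at 10.11 and the X-inactivation transcript Xist at 5.50, close to the male line OS_494H at 9.96 and 5.31 and unlike OS_493H at 4.08 and 12.62. OS_716H goes against its labelled sex, and SLRP results that depend on it are given with and without it. Among the cultures, culture 2 stood apart for some SLRP genes and is treated likewise. The summed level of 9 measured osteoblast markers, as log2 of the summed linear values, spanned 13.25 to 14.26 in the lines, against 14.81 to 15.58 in the cultures. Of these markers 5 were lower in the lines and none higher. For 10 fat cell markers it spanned 11.77 to 13.09 in the lines, against 14.73 to 15.40 in the cultures, with 9 lower and none higher in the lines. Adipoq, the fat cell hormone adiponectin, was at 5.88, 6.13 and 5.79 in OS_493H, OS_494H and OS_716H, against 12.42, 11.50 and 11.71 in cultures 1, 2 and 3. The osteoblast and fat cell markers that were lower move with the groups as Lum and Dcn do, and their part in the results below was not tested. Summed levels of the other cell types overlapped between the groups: 9.66 to 9.91 in the lines, against 9.73 to 9.87 in the cultures, for 7 blood cell markers, 11.48 to 12.05 in the lines, against 11.56 to 11.72 in the cultures, for 10 cartilage markers, and 11.46 to 13.06 in the lines, against 12.00 to 12.76 in the cultures, for 7 tendon markers. The tendon list holds Fmod and Kera themselves, so it is no independent check of cell type for the family.

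Of the 10 SLRP genes, Lum and Dcn fell in the osteosarcoma lines and none rose (adjusted p under 0.05, limma, Benjamini-Hochberg over all genes). Over all 19938 genes 11.4% were called lower and 13.2% higher, so the counts of 2 and 0 of 10 say nothing particular about the family. All 3 lines lay below all 3 cultures for 4 of the 10, Lum, Dcn, Fmod and Prelp, against 21.0% of all genes, and all 3 lay above for none, against 20.5%. The median log2 difference over the 10 was -0.08, and -0.02 over all genes. Within 1 family the log2 differences ran from -4.77 for Lum to 0.38 for Aspn, which did not pass the test.

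**Figure D1:**
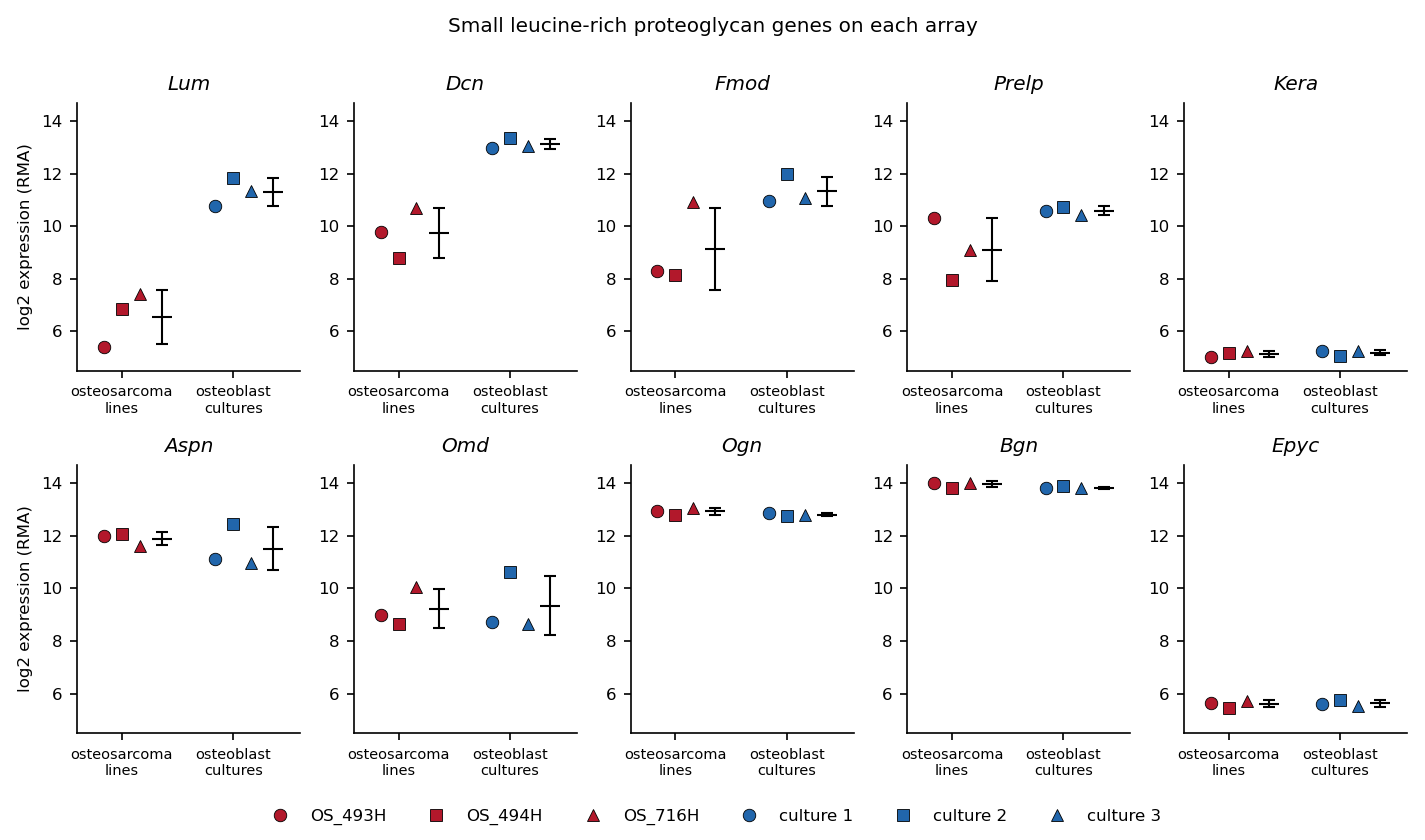
Log2 expression of the 10 SLRP genes on each array, with the 3 osteosarcoma lines in red on the left and the 3 osteoblast cultures in blue on the right of each panel. Black bars give the mean and SD of 3 samples. Lum and Dcn are lower in every line, Fmod of OS_716H and Prelp of OS_493H lie just under the cultures while the other lines lie further below, and Bgn and Ogn lie at nearly the same height in both groups. Heights in different panels come from different probes and are not comparable.

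Lum, which regulates fibril diameter in skin, tendon and cornea, was at 5.40 in OS_493H, 6.85 in OS_494H and 7.41 in OS_716H, against 10.77, 11.84 and 11.34 in cultures 1, 2 and 3. Its highest line lay more than 3 log2 units below its lowest culture. It averaged 6.55 ± 1.04 in osteosarcoma lines, against 11.32 ± 0.54 in osteoblast cultures (SD, n = 3 each), a log2 difference of -4.77 ± 0.53 (SE, adjusted p = 0.00172). All 3 line values lie below 7.53, the median of all probe sets on all arrays. The deposited values hold no detection call, so whether Lum was above background in the lines cannot be said, and no exact fold is given for it. Dcn, which binds type I collagen and TGF-beta, was at 9.79 in OS_493H, 8.79 in OS_494H and 10.68 in OS_716H, against 12.99, 13.35 and 13.07 in cultures 1, 2 and 3. The groups did not overlap. Averages of 9.75 ± 0.95 in osteosarcoma lines, against 13.14 ± 0.19 in osteoblast cultures (SD, n = 3 each), gave a log2 difference of -3.39 ± 0.44 (SE, adjusted p = 0.0028), a 10.4-fold fall. Leaving out any 1 array ended neither call (adjusted p up to 0.0119 for Lum and 0.0166 for Dcn). Without OS_716H the differences were -5.19 for Lum and -3.85 for Dcn, and without culture 2 they were -4.5 and -3.28. The 2 genes did not order the lines alike: OS_493H had the lowest Lum, OS_494H had the lowest Dcn, and OS_716H had the highest value of both.

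Fmod and Prelp, class II members that bind collagen and in the case of Prelp also heparan sulphate, differed between the lines. Fmod was at 8.29 in OS_493H and 8.16 in OS_494H but at 10.93 in OS_716H, against 10.97, 11.98 and 11.06 in cultures 1, 2 and 3. OS_716H thus lay just under the lowest culture, and the other 2 lines more than 2 log2 units under it. The group difference of -2.21 did not pass the test (95% interval, not adjusted for the number of genes, -4.00 to -0.42, adjusted p = 0.0795). Without OS_716H it was -3.11 and passed (adjusted p = 0.00333). Without culture 2 it was -1.89 and did not pass (adjusted p = 0.209). Leaving out culture 1, culture 3, OS_493H or OS_494H brought no call either. Prelp was at 10.31 in OS_493H, 7.94 in OS_494H and 9.10 in OS_716H, against 10.60, 10.75 and 10.42 in cultures 1, 2 and 3. Here OS_493H was the line nearest the cultures and OS_494H the farthest. The difference of -1.47 did not pass (95% interval -2.77 to -0.18, adjusted p = 0.10). Without OS_493H it was -2.07 and passed (adjusted p = 0.0132). Leaving out any other array brought no call for Prelp (adjusted p up to 0.224). With 1 array per line, these contrasts between lines have no test.

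Bgn and Ogn lay at nearly the same level in both groups. Bgn, whose loss in mice lowers bone mass, was at 14.02, 13.84 and 14.03 in OS_493H, OS_494H and OS_716H, against 13.81, 13.88 and 13.81 in cultures 1, 2 and 3. The groups overlapped, and the 95% interval of the difference, -0.07 to 0.32, holds no change as large as those of Lum or Dcn (adjusted p = 0.323). Ogn, also called mimecan, was at 12.95, 12.80 and 13.05 in OS_493H, OS_494H and OS_716H, against 12.86, 12.75 and 12.78 in cultures 1, 2 and 3, with an interval of -0.07 to 0.35 (adjusted p = 0.324). For both genes OS_494H was the lowest line. Neither gene passed when any 1 array was left out.

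Aspn and Omd varied between the cultures. Aspn, which binds collagen and TGF-beta, was at 11.99, 12.08 and 11.62 in OS_493H, OS_494H and OS_716H, against 11.11, 12.46 and 10.98 in cultures 1, 2 and 3. Culture 2 lay above every line and cultures 1 and 3 below every line. The difference of 0.38 did not pass (95% interval -0.55 to 1.31, adjusted p = 0.552). Without culture 2 it was 0.85 and passed (adjusted p = 0.0188), but with any other array left out it did not (up to 0.895). Omd, an SLRP of mineralised bone that binds osteoblasts through an integrin, was at 8.99, 8.64 and 10.07 in OS_493H, OS_494H and OS_716H, against 8.73, 10.64 and 8.65 in cultures 1, 2 and 3. The difference was -0.11 (95% interval -1.56 to 1.35, adjusted p = 0.926), and without culture 2 it turned to 0.54 (adjusted p = 0.453). Culture 2 exceeded the mean of cultures 1 and 3 by 1.95 for Omd, 1.41 for Aspn, 0.96 for Fmod and 0.79 for Lum, but differed by 0.07 for Bgn and -0.07 for Ogn. The median over all genes was 0.00, a signed value that does not show how many genes shifted as far. Culture 2 also differed outside the family. Its summed osteoblast markers were the highest of the cultures, 15.58 against 15.04 in culture 1 and 14.81 in culture 3. Its summed fat cell markers were the lowest, 14.73 against 15.4 in culture 1 and 15.06 in culture 3. A shift in culture 2 is thus not particular to SLRP genes.

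Kera spanned 5.02 to 5.25 in the lines, against 5.07 to 5.26 in the cultures. Epyc spanned 5.47 to 5.72 in the lines, against 5.51 to 5.77 in the cultures. All these values lie below the median of all probe sets, 7.53, and without a detection call it cannot be said whether either transcript was present. Their differences of -0.05 and -0.02 did not pass (adjusted p = 0.787 and 0.925).

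**Figure D2:**
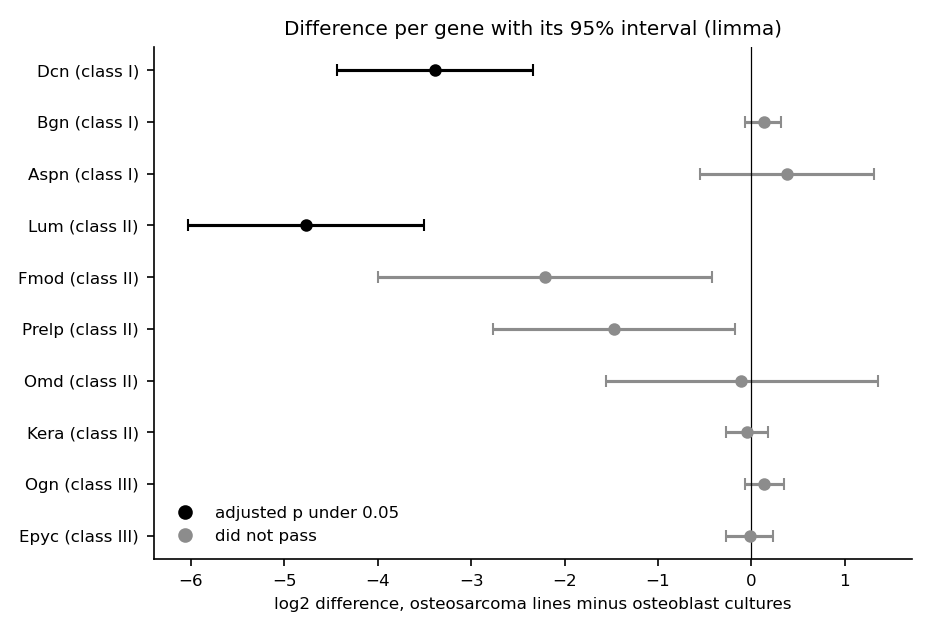
Log2 difference between the osteosarcoma lines and the osteoblast cultures for each SLRP gene, ordered by class, with 95% intervals from limma that are not adjusted for the number of genes. Black points passed at an adjusted p under 0.05 and grey points did not. The intervals of Dcn and Lum end at -2.34 and -3.50, while those of Bgn, Ogn, Kera and Epyc are narrow and include 0.

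By class, 1 of 3 class I genes (Dcn), 1 of 5 class II genes (Lum) and none of 2 class III genes fell. By line, counting values at least 1 log2 unit below the lowest culture, OS_493H had 3 of the 10 genes (Lum, Dcn and Fmod) against 2.13% of all genes. OS_494H had 4 (Lum, Dcn, Fmod and Prelp) against 2.87%, and OS_716H had 3 (Lum, Dcn and Prelp) against 2.57%. No SLRP gene in any line lay at least 1 unit above the highest culture, against 4.07%, 4.16% and 3.59% of all genes in OS_493H, OS_494H and OS_716H. The spread among the lines was wide as well: 5 of the 10 genes (Fmod, Prelp, Lum, Dcn and Omd) ranged over at least 1 log2 unit across the 3 lines, against 4.98% of all genes. Across the 3 cultures 4 did (Omd, Aspn, Lum and Fmod), against 1.15%. The limit of 1 unit was chosen with the values known. The shares of all genes include dim genes with little room to fall, while most of the 10 lay above 7.53, the median of all probe sets, in the cultures. The lines were set against the same cultures, so their counts are not independent. Whether the family exceeds genes of like brightness was not tested. Fmod had the widest range over lines of the 10 at 2.77, and Omd the widest over cultures at 1.99, with medians over all genes of 0.25 and 0.18.

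SLRP genes lie in clusters, and the gene order of mouse assembly GRCm38.p6 was used to set them beside their neighbours. On chromosome 10 the order is Dcn, Lum, Kera, Epyc. Relative to the mean of the cultures, Dcn and Lum were at -3.35 and -5.92 in OS_493H, -4.35 and -4.47 in OS_494H, and -2.46 and -3.91 in OS_716H. Of the nearest measured genes around the cluster, which were taken by position, the endosome tether Eea1 fell by 1.51, the antiproliferative gene Btg1 fell by 0.69 and the calcium pump Atp2b1 fell by 0.81 (adjusted p = 0.00303, 0.0189 and 0.00141). Btg1 did not pass without culture 1, nor without culture 3 (highest adjusted p 0.0755). Ccer1 differed by 0.02 and did not pass. The flanking falls were smaller than those of Dcn and Lum. Kera and Epyc, beside Lum, were so dim in both groups that they allow no comparison with it.

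On chromosome 13 the order is Ecm2, Aspn, Omd, Ogn. Ecm2, a related matrix protein, was at 7.96, 6.69 and 7.92 in OS_493H, OS_494H and OS_716H, against 6.93, 7.28 and 6.82 in cultures 1, 2 and 3 (adjusted p = 0.358), and passed without OS_494H, the lowest line. The annotated interval of Cenpp, a centromere protein, spans all 4 of these genes. Cenpp rose by 2.29 ± 0.31 (SE, adjusted p = 0.00339), while Aspn, Omd and Ogn inside it did not pass. Cenpp was at 8.09, 8.69 and 8.83 in OS_493H, OS_494H and OS_716H, against 5.95, 6.89 and 5.90 in cultures 1, 2 and 3. All 3 culture values lie below 7.53, the median of all probe sets, so whether Cenpp was above background in them cannot be said. Of the other flanks there, Ippk, an inositol phosphate kinase, rose by 0.42 (adjusted p = 0.0174), a call lost without culture 1 or 3. Nol8, a nucleolar protein, fell by 0.51 (adjusted p = 0.0499), a call that only leaving out OS_494H did not end. Iars differed by 0.08 and did not pass. On chromosome 1 the order is Optc, Prelp, Fmod. Optc, opticin of the eye, rose by 0.43 (adjusted p = 0.045), but its 6 values lay between 6.63 and 7.32, under the median of all probe sets, and the call was lost without any 1 of cultures 1, 2 and 3, OS_493H and OS_716H. The flanks moved in opposite directions: Snrpe, a splicing protein on the side of Optc, rose by 1.45 (adjusted p = 0.000801), and Btg2 beside Fmod fell by 0.84 (adjusted p = 0.0152). Lax1 and Chit1 differed by -0.09 and 0.07 and did not pass. Bgn lies alone on the X chromosome, where the adjacent Haus7, a spindle subunit, rose by 1.69 (adjusted p = 0.00114). The other flanks of Bgn, Trex2, Atp2b3 and Dusp9, differed by -0.1, -0.05 and 0.17 and did not pass.

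**Figure D3:**
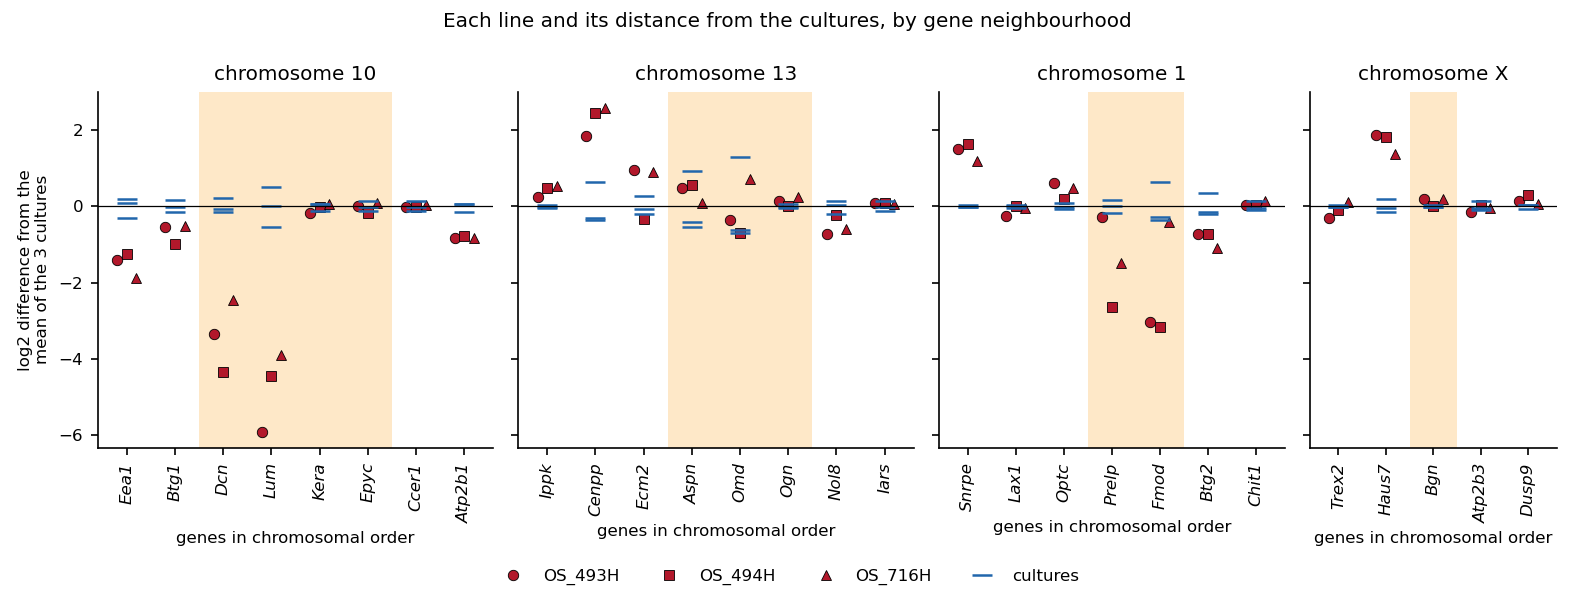
Log2 difference of each osteosarcoma line (red symbols) and each culture (blue bars) from the mean of the 3 cultures, for genes in chromosomal order, with SLRP genes on a shaded ground. Dcn and Lum lie far below their neighbours, Prelp and Fmod differ by line, and Aspn, Omd and Ogn lie within 1 unit of 0 in every line while Cenpp, whose interval spans them, lies above.

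Promoter sequences are shown for Bgn and Ogn, the pair with small differences, and for the neighbouring pair that differed by line, Fmod and Prelp. They are the 250 bases before the annotated start from RefSeq, assembly GRCm38.p6, whose table held 8 of the 10 genes. The 2 without an entry are Lum and Dcn, so no called gene is among the promoters. Capitals mark matches on either strand to any of TGTGGT (Runx), TGANTCA (AP-1), CANNTG (E-box), GGGCGG (Sp/KLF) and CAGAC (Smad). Matches can overlap, as the Runx and E-box letters do in Ogn.
Bgn promoter, chrX:73483351-73483600, plus strand: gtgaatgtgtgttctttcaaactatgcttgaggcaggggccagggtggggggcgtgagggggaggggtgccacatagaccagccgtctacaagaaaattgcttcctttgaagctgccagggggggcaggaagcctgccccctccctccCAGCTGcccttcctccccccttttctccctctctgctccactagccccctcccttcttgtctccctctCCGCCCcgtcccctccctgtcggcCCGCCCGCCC
Ogn promoter, chr13:49607765-49608014, plus strand: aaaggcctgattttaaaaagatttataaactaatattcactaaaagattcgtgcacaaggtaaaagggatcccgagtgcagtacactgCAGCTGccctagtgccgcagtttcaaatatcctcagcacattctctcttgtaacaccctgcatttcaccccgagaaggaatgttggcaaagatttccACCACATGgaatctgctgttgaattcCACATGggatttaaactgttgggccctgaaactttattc
Fmod promoter, chr1:134037004-134037253, plus strand: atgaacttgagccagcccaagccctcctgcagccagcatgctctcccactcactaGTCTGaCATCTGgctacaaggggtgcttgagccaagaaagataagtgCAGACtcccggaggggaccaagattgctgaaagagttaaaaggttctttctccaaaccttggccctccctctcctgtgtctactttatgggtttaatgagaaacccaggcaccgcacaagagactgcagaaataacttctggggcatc
Prelp promoter, chr1:133921402-133921651, minus strand: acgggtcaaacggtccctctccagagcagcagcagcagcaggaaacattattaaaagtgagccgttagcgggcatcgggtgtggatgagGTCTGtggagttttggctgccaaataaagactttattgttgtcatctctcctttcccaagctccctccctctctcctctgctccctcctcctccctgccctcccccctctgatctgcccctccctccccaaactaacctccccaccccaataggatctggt

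The Bgn window was rich in G and C (64.4%, with 7 CpG pairs, against medians of 52.0% and 6.0 over 27025 promoters) and had 3 Sp/KLF matches and 1 E-box. That of Ogn (42.0%, 4 CpG pairs) had 1 Runx match and 3 E-boxes. The Fmod window (51.2%, 2 CpG pairs) had 2 Smad matches and 1 E-box, and that of Prelp (55.6%, 5 CpG pairs) had 1 Smad match. None of the 4 had an AP-1 match. Among all promoters, windows of this length held the Runx letters in 14.2%, AP-1 in 6.9%, the E-box in 66.0%, Sp/KLF in 32.9% and Smad in 42.1%. Of the motifs searched, Bgn and Ogn shared only the common E-box. Matches describe the letters of these windows only.

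The genes whose profile over the 6 arrays lay nearest to that of Lum were Adgrf5, an adhesion receptor, F13a1, the coagulation factor XIII A chain, and Igf2, a growth factor. Nearness was the Euclidean distance between profiles centred on each gene's mean, and the 3 distances were 1.25, 1.41 and 1.69. Those nearest to Dcn were Maob, a monoamine oxidase, Gbp11, a guanylate-binding protein, and Fap, a surface protease of activated fibroblasts, at 0.90, 0.97 and 1.13. Fap was at 6.82, 6.04 and 6.74 in OS_493H, OS_494H and OS_716H, against 10.14, 9.63 and 9.47 in cultures 1, 2 and 3. All 3 line values of Fap, Maob, Gbp11 and F13a1 lie below 7.53, the median of all probe sets. Whether these genes were above background in the lines cannot be said. Dcn itself was 22nd nearest to Lum, and Lum was at rank 173 for Dcn.

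**Figure D4:**
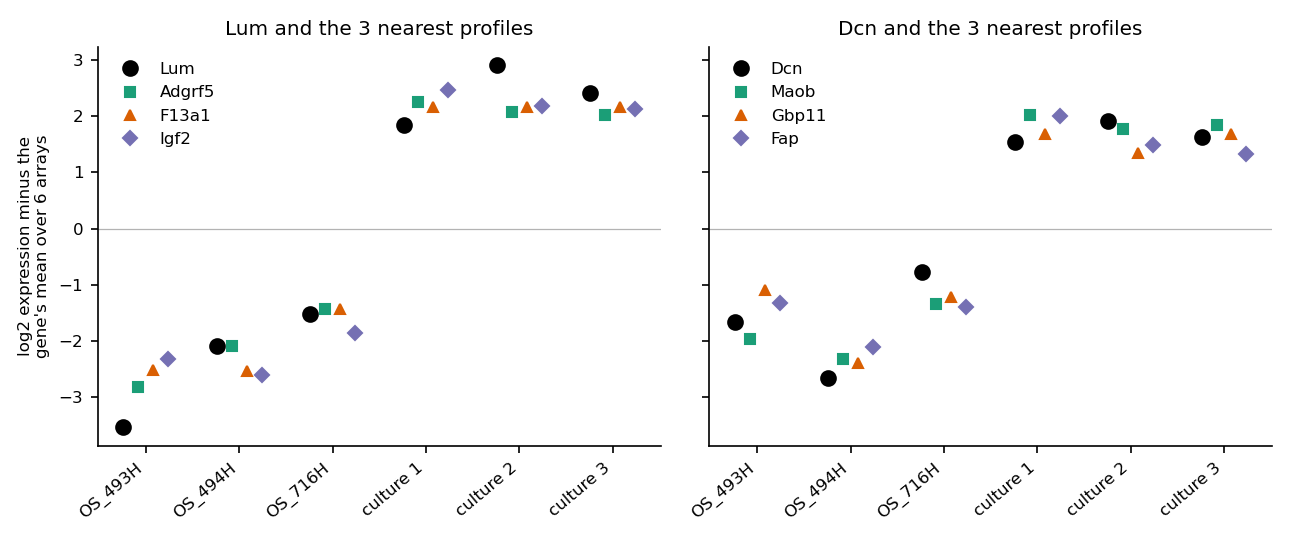
Log2 expression of Lum (left) and Dcn (right), each with the 3 genes of the nearest profile, minus the gene's mean over 6 arrays, for the 3 osteosarcoma lines and then the 3 cultures. OS_494H is the lowest line for Dcn and its 3 neighbours, and OS_716H is the highest line for Lum and its 3 neighbours. The neighbours were chosen by likeness over these same 6 arrays, so a shared order of the lines is partly built in.

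The genes around SLRP biology went in both directions. Of 21 measured fibril collagens and fibril-associated proteins, 3 rose and 2 fell. The type I collagen chains to which Dcn binds, Col1a1 and Col1a2, differed by -0.07 and -0.03 and did not pass. Tgfbi, a collagen-binding protein induced by TGF-beta, rose 8.54-fold (adjusted p = 0.00975), at 11.61, 11.24 and 13.50 in OS_493H, OS_494H and OS_716H, against 8.92, 9.40 and 8.74 in cultures 1, 2 and 3. Lox, which cross-links collagen, rose 2.36-fold (adjusted p = 0.00362), and Col5a3 fell 1.72-fold (adjusted p = 0.00211). Col3a1 rose 2.27-fold (adjusted p = 0.043), a call lost without culture 1, culture 3, OS_493H or OS_716H (up to 0.146). Without culture 2, 6 of the list rose, and without OS_494H 5 rose. Without any 1 culture or without OS_494H 1 fell.

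Of 25 other proteoglycans, 4 fell and 2 rose, and leaving out any 1 array ended none of these calls. Serglycin (Srgn), an intracellular proteoglycan of secretory granules, fell by 4.67 on the log2 scale (adjusted p = 0.00061). It was at 8.70, 7.48 and 7.55 in OS_493H, OS_494H and OS_716H, against 12.34, 12.90 and 12.52 in cultures 1, 2 and 3. Its values in OS_494H and OS_716H lie close to 7.53, the median of all probe sets, so no exact fold is given. The cell surface heparan sulphate proteoglycans Gpc1 and Sdc2 fell 2.70- and 2.06-fold. Cspg4, a transmembrane chondroitin sulphate proteoglycan, rose 1.93-fold (adjusted p = 0.00569). Without OS_494H, 8 rose. Of 7 other leucine-rich proteoglycans 1 was called, Optc, and Ecm2 had the largest difference at 0.51. Without OS_494H 2 rose, Optc and Ecm2, and without any other single array none did.

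**Figure D5:**
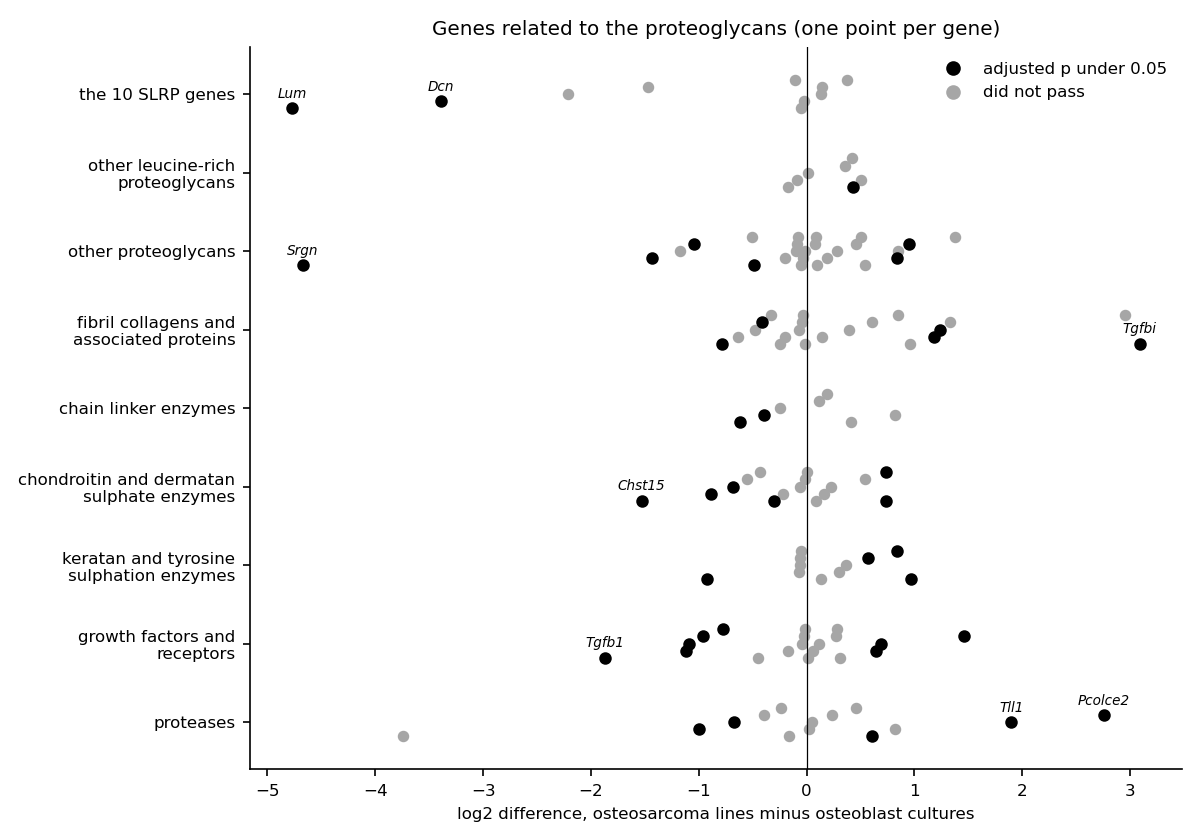
Log2 difference between the osteosarcoma lines and the osteoblast cultures for every measured gene of each list, with black points at an adjusted p under 0.05 and grey points above it. Names are given for called genes that differ by at least 1.5. Lum, Dcn and Srgn stand far left of the other proteoglycan genes.

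Enzymes that build the sugar chains showed smaller differences than Lum and Dcn. Of 7 enzymes of the chain linker, the glucuronyltransferase B3gat3 and the xylosyltransferase Xylt2 fell by 0.62 and 0.39 (adjusted p = 0.00412 and 0.0076) and none rose, though without OS_716H 2 rose. Of 16 enzymes of chondroitin and dermatan sulphate, 4 fell and 2 rose. The sulphotransferases Chst15, Chst11 and Ust fell by 1.53, 0.89 and 0.68 (adjusted p = 0.00156, 0.00758 and 0.00154) and kept their calls on leaving out any 1 array. Chst12 and Chsy3 rose by 0.74 each (adjusted p = 0.0243 and 0.0352), and without culture 1, culture 3, OS_493H or OS_716H no member rose. Without culture 2, 1 rose. Of 11 enzymes of keratan sulphate and tyrosine sulphation, 3 rose and 1 fell. Tpst1, which sulphates tyrosines, and Chst1, a keratan sulphate sulphotransferase, rose by 0.97 and 0.57 (adjusted p = 0.0015 and 0.00585). B4galt4 rose by 0.84 (adjusted p = 0.0165), a call lost without any 1 culture (up to 0.0593), and B3gnt2 fell by 0.92 (adjusted p = 0.00449).

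Among 19 measured growth factors and receptors that SLRPs are known to bind, 5 fell and 3 rose. Tgfb1, a ligand held by Dcn, Bgn and Fmod, fell 3.65-fold, at 9.61, 9.92 and 9.90 in OS_493H, OS_494H and OS_716H, against 11.55, 11.90 and 11.58 in cultures 1, 2 and 3 (adjusted p = 0.000588). Met, a receptor tyrosine kinase bound by Dcn, rose 2.75-fold (adjusted p = 0.0136). Itgb3 and Ccn4 fell by 1.12 and 1.09 (adjusted p = 0.0243 and 0.0461), calls lost without any 1 culture, that of Itgb3 also without OS_716H and that of Ccn4 without OS_493H or OS_494H (up to 0.0904 and 0.128). The number that fell was 1 without any 1 culture, 3 without OS_493H or OS_716H and 2 without OS_494H. Tlr2, a receptor for Bgn, differed by -0.04 and did not pass. Tlr4, of the same list, differed by -0.77 and was called lower (adjusted p = 0.0423). The Tlr4 call was lost without any 1 culture, without OS_494H or without OS_716H (up to 0.143).

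Of 14 measured proteases and enhancers that act on SLRPs or on procollagen, 3 rose and 2 fell. Pcolce2, a procollagen C-proteinase enhancer, rose, at 10.05, 10.54 and 8.74 in OS_493H, OS_494H and OS_716H, against 7.28, 7.32 and 6.44 in cultures 1, 2 and 3 (log2 difference 2.76, adjusted p = 0.00767). Tll1, a tolloid protease related to the Bgn-processing Bmp1, rose by 1.90 on the log2 scale (adjusted p = 0.0129, and 0.0541 without culture 1). All 3 culture values of Pcolce2 and of Tll1 lie below 7.53, so whether either was above background there cannot be said. Bmp1 differed by 0.24 and did not pass. Mmp14, a membrane metalloprotease, fell by 0.67 (adjusted p = 0.00721), and Adamts4 fell by 1.00 (adjusted p = 0.0487), a call lost without any 1 culture or OS_493H (up to 0.155). Mmp13 was at 9.19, 7.67 and 12.86 in OS_493H, OS_494H and OS_716H, against 13.92, 13.11 and 13.92 in cultures 1, 2 and 3 (adjusted p = 0.0699), and like Fmod it passed without OS_716H. The number that rose was 1 without culture 1, and the number that fell was 1 without any 1 culture or OS_493H and 4 without OS_716H. The counts of all these lists can be set beside 13.2% of all genes called higher and 11.4% called lower.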

How the data were processed

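RNA was isolated with Trizol followed by column clean-up, according to the labels, and each sample was hybridised to 1 array. For 35556 probe sets the authors deposited log2 expression, and the submitters' processing notes name RMA and the genome build mm9. For the software, no version is given in these sources. The log2 scale was read from the values, which lie between 3.04 and 14.88. RMA leaves no detection call, and no batch information was used. The 3 arrays per group limit the precision.

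A single symbol was attached to 21789 probe sets in the platform annotation and several to 1621, while 12146 are unnamed here. Symbols were checked by gene identifier against RefSeq GRCm38.p6 (21698 found, none changed). For 999 genes with several probe sets the highest mean was used. All 19938 genes were fitted with limma 3.58.1 in R 4.3.3 (lmFit, eBayes, two-sided, no covariate), with Benjamini-Hochberg adjustment over all of them. The fit was checked on simulated data. Differences are osteosarcoma minus osteoblast.

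Members, gene lists and motifs were chosen with earlier results of these data known. Genes are named by rule: the SLRP genes, Rb1, the 3 nearest profiles to each called member, and from each list up to 4 called genes of the largest difference, or else the 2 largest. Named outside this rule, after their values were seen, were Col1a1, Col1a2, Ust, Tlr2, Tlr4, Bmp1 and Mmp13. So were the markers in the closing section, the sex-linked genes and the gene from the fat cell list. Flanking genes were taken by position, 2 measured genes on each side. Alternatives were other normalisations, filters, moderation, weights, probe set rules and thresholds, and leaving out each array.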

Additional observations from a re-analysis of the deposited data

How the results depend on the processing

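No paired analysis was possible because the lines, each from 1 primary tumour, have no counterpart among the KUSA4b10 cultures. Lum and Dcn were called lower under all 18 alternatives, from -5.19 to -4.19 (adjusted p 0.00056 to 0.0119) and from -3.85 to -2.90 (0.00048 to 0.0166), and the number of SLRP genes called lower was 2 to 3. The number called higher was 0 to 1 on leaving out 1 array, and 1 (Aspn) without both OS_716H and culture 2, a setting chosen after seeing the data. Under that setting Fmod was at -2.79 and Aspn at 0.99, both called (adjusted p = 0.00282 and 0.0068), and Omd turned to 0.13. Fmod was also called with array weights (-2.33, adjusted p = 0.0185). On leaving out 1 array the differences ranged from -3.11 to -1.72 for Fmod, -2.07 to -0.89 for Prelp, 0.11 to 0.85 for Aspn and -0.52 to 0.54 for Omd, and for Kera and Epyc from -0.11 to 0.02 and from -0.08 to 0.05. Signs near 0 turned without a call: Kera and Epyc to 0.04 and 0.07 with quantile normalisation and to 0.02 and 0.05 with median centring, and Omd and Epyc to 0.15 and 0.03 with array weights. Kera and Epyc were not tested among brighter genes only. Bgn and Ogn were called under none of the alternatives (adjusted p from 0.133 up). Over all genes the numbers called were 1533 higher and 1211 lower without culture 1, 1610 and 1350 without culture 3, 1394 and 1072 at an adjusted p under 0.01, and 811 and 561 with at least a 2-fold difference, against 2622 and 2274. With all 35556 probe sets tested, 3566 were higher and 4150 lower. These count probe sets and not the 19938 genes, so they cannot be set directly beside the gene counts. Of the differences of single lines from the cultures, 54 moved by less than the spread between replicates under other scalings and 6 by more. Of the list counts, 221 stayed within 1.5 times and 67 did not. The causes were not tested.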

Other observations

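Some markers of mineralising osteoblasts were among the genes that fell. Of 9 measured osteoblast markers 5 fell, while Col1a1, Sp7, Alpl and Mepe did not pass. On leaving out 1 array, Pth1r kept its call only without OS_716H. Ibsp, bone sialoprotein, was at 6.60, 6.40 and 8.20 in OS_493H, OS_494H and OS_716H, against 13.10, 13.67 and 12.91 in cultures 1, 2 and 3 (limma adjusted p = 0.000714). Dmp1, a matrix protein of osteocytes, was at 6.63, 7.20 and 6.56 in OS_493H, OS_494H and OS_716H, against 11.49, 10.80 and 11.19 in cultures 1, 2 and 3 (adjusted p = 0.000255). For both genes every line lay below every culture. All 3 line values of Dmp1, and those of Ibsp in OS_493H and OS_494H, lie below 7.53, the median of all probe sets. Without a detection call it cannot be said whether either gene was above background there. None of the 7 tendon markers passed and their median difference was -0.05. Among them Tnmd, a membrane glycoprotein of tendon, was at 10.40, 8.46 and 7.03 in OS_493H, OS_494H and OS_716H, against 6.24, 6.41 and 6.39 in cultures 1, 2 and 3. Its difference of 2.29 did not pass (adjusted p = 0.0761), and passed without OS_716H. Its culture values also lie below 7.53. The other tendon markers went in both directions, none past the test: the log2 differences were 1.65 for Thbs4, 0.38 for Mkx, -0.05 for Kera, -0.21 for Scx, -1.04 for Egr1 and -2.21 for Fmod.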
